A study of Mus musculus with 19 samples.

Results

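The genes described here are Fads1, Fads2, Elovl2 and Elovl5, which build long polyunsaturated fatty acids, and Pnpla3, a lipid droplet protein of the liver. The 5 genes were chosen by name, found by matching the Ensembl identifier of each gene in the count tables to its mouse symbol, and all 5 were among the 49315 genes in the tables and among the 15016 genes that passed the filter on low counts. Liver RNA of 19 female mice was sequenced, 1 library per mouse, from a colony founded with the strain C57BL/6N-Atm1Brd Gramd1ctm1a(KOMP)Wtsi/JMmucd. The groups were 5 Gramd1c-/- mice on the high cholesterol diet, 4 Gramd1c-/- mice on the low cholesterol diet, 5 Gramd1c+/+ mice on the high cholesterol diet and 5 Gramd1c+/+ mice on the low cholesterol diet. The diets, with 0.2% or 0.02% cholesterol by weight, were fed for 4 weeks from 8 weeks of age, and most of the study's mice were fasted for 4 h before tissue was taken. Gramd1c encodes Aster-C, a sterol transfer protein. The Gramd1c-/- mice carry a tm1a allele in every tissue, and Gramd1c+/+ mice were littermates from crosses of heterozygous parents.

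Linoleic and alpha-linolenic acid come from the diet and are lengthened and desaturated in the liver. FADS2 places the first new double bond, ELOVL5 adds carbons to the product, FADS1 places the next double bond to give arachidonic and eicosapentaenoic acid, and ELOVL2 lengthens these further on the way to docosahexaenoic acid. The transcription factor SREBP-1c, which insulin and oxysterols acting through LXR raise, is known to drive these desaturase and elongase genes in mouse liver, and dietary polyunsaturated fatty acids lower them. PNPLA3 sits on lipid droplets, its mouse gene is also a target of SREBP-1c, and a common human variant of it is linked to fatty liver.

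Of the 5 genes, 4 had a promoter in the table of RefSeq mouse promoters (build GRCm38.p6, from 250 bases before to 50 bases after the start), and they are shown for the 3 of these genes that were called lower on high cholesterol (Fads2, Elovl2 and Elovl5) and for Pnpla3, which was not called. Fads1 is named only. Capitals mark the GC box GGGCGG, the CCAAT box CCAAT, the E-box CACGTG and the cAMP response element TGACGTCA on either strand, and the sterol regulatory element TCACNCCAC and the TATA box TATAAA were searched in the same way. None of these motifs overlapped another in the 4 sequences. Each sequence runs 5′ to 3′ on the strand of the gene.
Fads2: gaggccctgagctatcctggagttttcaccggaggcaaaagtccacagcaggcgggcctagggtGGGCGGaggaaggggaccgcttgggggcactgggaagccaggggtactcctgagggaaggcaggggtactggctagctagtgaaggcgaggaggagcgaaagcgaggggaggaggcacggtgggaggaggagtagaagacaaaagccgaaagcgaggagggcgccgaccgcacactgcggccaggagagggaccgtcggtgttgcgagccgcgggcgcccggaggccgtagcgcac
Elovl2: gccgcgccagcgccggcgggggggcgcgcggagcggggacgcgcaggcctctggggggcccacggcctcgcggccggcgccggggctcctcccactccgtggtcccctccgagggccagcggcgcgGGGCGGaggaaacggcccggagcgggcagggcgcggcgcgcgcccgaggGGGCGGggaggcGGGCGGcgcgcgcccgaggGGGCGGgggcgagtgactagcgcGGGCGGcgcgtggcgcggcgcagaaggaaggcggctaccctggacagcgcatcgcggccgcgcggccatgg
Elovl5: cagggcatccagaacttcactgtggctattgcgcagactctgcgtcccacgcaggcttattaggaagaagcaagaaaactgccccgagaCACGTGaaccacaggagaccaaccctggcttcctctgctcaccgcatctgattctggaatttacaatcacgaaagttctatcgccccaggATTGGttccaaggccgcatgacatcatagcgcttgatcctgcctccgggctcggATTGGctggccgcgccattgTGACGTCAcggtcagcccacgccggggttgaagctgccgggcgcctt
Pnpla3: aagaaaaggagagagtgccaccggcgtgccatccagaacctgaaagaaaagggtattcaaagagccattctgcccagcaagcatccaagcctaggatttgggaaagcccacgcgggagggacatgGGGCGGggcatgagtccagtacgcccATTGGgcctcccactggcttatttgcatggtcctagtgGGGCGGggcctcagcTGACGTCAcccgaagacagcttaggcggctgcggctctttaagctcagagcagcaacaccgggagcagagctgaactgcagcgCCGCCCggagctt
The Fads2 window is chr19:10101454-10101753 (minus strand), the Elovl2 window chr13:41220354-41220653 (minus strand), the Elovl5 window chr9:77917115-77917414 (plus strand) and the Pnpla3 window chr15:84167566-84167865 (plus strand). Fads2 held 1 GC box and Elovl2 held 5. Elovl5 held 2 CCAAT boxes, 1 E-box and 1 cAMP response element. Pnpla3 held 1 CCAAT box, 3 GC boxes and 1 cAMP response element. No letters of the sterol regulatory element or the TATA box were found in these 4 windows. Among 32851 promoters of the same length, 35.7% held a GC box, 37.4% a CCAAT box, 7.15% the E-box, 1.79% the cAMP response element, 1.24% the sterol regulatory element and 13.6% the TATA box. A match describes letters and is not evidence of a bound site. In the annotation GENCODE M21 Fads2 starts at 10101746, against 10101503 in the gene model used here. Most of the Fads2 window therefore lies within the M21 gene. For Elovl2 RefSeq listed 2 promoters, and the one nearest the gene start was used.

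The libraries held 27149972 to 34669648 counts each. The tissue field of the labels reads gonadal adipose while the cell type field reads liver. Albumin (Alb) took 5.25 to 9.17% of the counts, and the summed level of 5 adipocyte markers was at most 37.2 TPM. TPM values (counts per gene length, scaled to a common total) were worked out from each table's counts and lengths. Gramd1c was at 1.07 to 3.61 TPM in the 9 Gramd1c-/- mice and 9.56 to 15.99 TPM in the 10 Gramd1c+/+ mice, without overlap. On the first principal component (24.4% of the variance) replicate 5 of Gramd1c-/- on high cholesterol stood at 83.1, against -46.7 to 38.4 for the other mice. In replicate 2 of Gramd1c+/+ on low cholesterol 5 adrenal cortex markers summed to 569 TPM, against 0.658 to 3.69 TPM in the other mice.

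Fads1, Fads2, Elovl2 and Elovl5 were lower on the high than on the low cholesterol diet when both genotypes were averaged, and Pnpla3 did not pass the test. The log2 fold changes were -1.06 for Fads2, -0.90 for Fads1, -0.79 for Elovl5, -0.59 for Elovl2 and -1.23 for Pnpla3. The threshold for a call was 0.05 on the p of edgeR's quasi-likelihood test, adjusted by Benjamini-Hochberg over all genes tested, with the 4 groups in 1 model. Of the 5 genes 4 were called lower and none higher, where 0.852% of all 15016 genes were called lower, 0.446% higher and 1.3% in either direction. The 5 genes were chosen with earlier results of these data known, so these shares are a description and no test of the set. Called in 1 genotype alone were 1 of the 5 genes in Gramd1c-/- mice (all genes: 0.326%, 0.293% lower and 0.0333% higher) and 1 of 5 in Gramd1c+/+ mice (all genes: 0.44%, 0.34% lower and 0.0999% higher), Fads1 in each case. The labels name no batches.

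**Figure D1:**
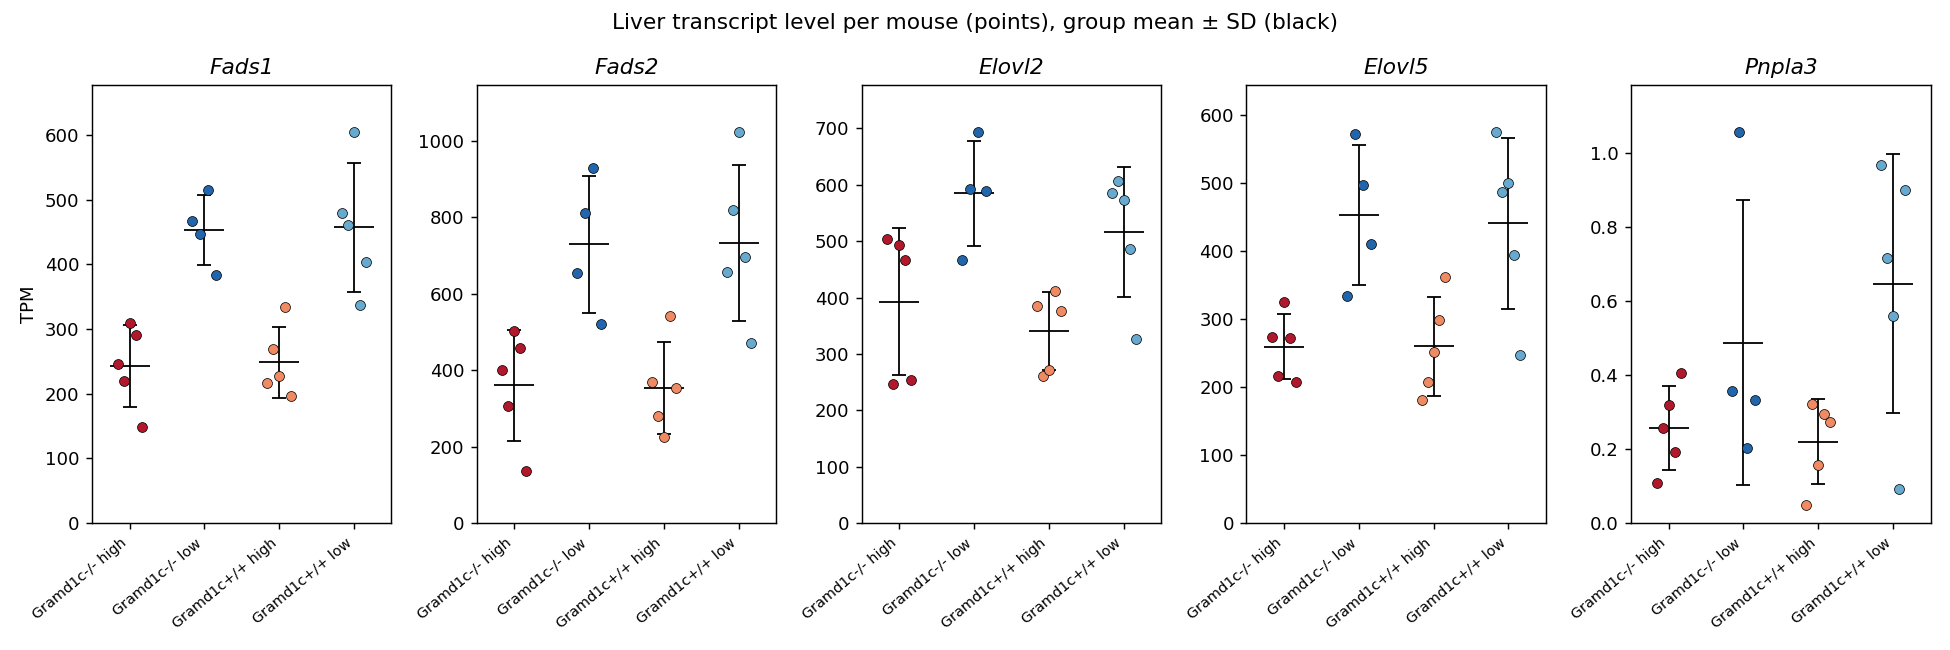
Level of each of the 5 genes in liver (vertical axis, TPM, each panel on its own scale from 0) by group (horizontal axis, genotype and high or low cholesterol diet). Points are single mice, and the black line and bar are the group mean and SD. The 10 Fads1 points on high cholesterol lie between 148 and 335 TPM, below all 9 on low cholesterol at 337 to 605 TPM.

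Fads1 (ENSMUSG00000010663, chr19:10182888-10196870, plus strand, GRCm38), the delta-5 desaturase, was at 247, 219, 309, 291 and 148 TPM in Gramd1c-/- mice on high cholesterol, against 467, 447, 514 and 384 TPM in Gramd1c-/- mice on low cholesterol. In Gramd1c+/+ mice it was at 216, 270, 227, 335 and 197 TPM on high cholesterol, against 480, 461, 605, 337 and 404 TPM on low cholesterol. The diets did not overlap in either genotype, nor over all mice, with 10 of 10 mice on high cholesterol below all 9 on low cholesterol. Of all genes tested 0.306% were lower without overlap over the 10 and 9 mice, 0.773% in Gramd1c-/- and 1.03% in Gramd1c+/+ mice. The gap was narrow at its edge, between 335 TPM in replicate 4 of Gramd1c+/+ on high cholesterol and 337 TPM in replicate 4 of Gramd1c+/+ on low cholesterol. For diet the log2 fold change was -0.95 in Gramd1c-/- mice (SE 0.19, adjusted p = 0.0311) and -0.85 for Gramd1c+/+ (SE 0.19, adjusted p = 0.0464, edgeR). Averaged over the genotypes it was -0.90 (standard error 0.13, adjusted p = 0.000651, edgeR). By the two-sided exact permutation test on TPM, p was 0.0159 in Gramd1c-/- mice (n = 5 and 4) and p = 0.00794 in Gramd1c+/+ mice (n = 5 each). Each is the smallest p the test can give at that group size, with 126 and 252 splits. In Gramd1c+/+ mice the call was lost when any of 15 of the 19 mice was left out, where the adjusted p over all 19 such fits ran from 0.0172 to 0.190. It was kept only without replicate 4 of Gramd1c+/+ on low, replicate 4 of Gramd1c-/- on low, or replicate 3 or 5 of Gramd1c-/- on high cholesterol. In Gramd1c-/- mice it was lost without any of 7 of its own mice, replicates 1, 2 and 3 on low and 1, 2, 3 and 5 on high cholesterol, with adjusted p of 0.0150 to 0.171 over all 19. The average over both genotypes was called without any of the 19, at 0.000380 to 0.00276.

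Fads2 (ENSMUSG00000024665, chr19:10064164-10101503, minus strand), the delta-6 desaturase, had the highest mean level of the 5 genes, and its start lies 81.4 kb from that of Fads1. It was at 400, 305, 502, 458 and 136 TPM in Gramd1c-/- mice on high cholesterol, against 653, 812, 929 and 522 TPM on low cholesterol. Gramd1c+/+ mice had 370, 280, 226, 542 and 353 TPM on high cholesterol, against 656, 819, 1023, 697 and 472 TPM on low cholesterol. The diets did not overlap in Gramd1c-/- mice. In Gramd1c+/+ mice only replicate 4 on high cholesterol stood above a mouse on low cholesterol, replicate 5. In log2 CPM, counts scaled by library size with TMM as in the count model, the 10 mice on high cholesterol reached 8.345 and the 9 on low cholesterol began at 8.349, without overlap. On that scale 0.4% of all genes tested were lower on high cholesterol without overlap. The log2 fold change averaged over the genotypes was -1.06 (standard error 0.19, adjusted p = 0.00414, edgeR). Within a genotype it was -1.08 in Gramd1c-/- (adjusted p = 0.167) and -1.04 in Gramd1c+/+ mice (adjusted p = 0.131, edgeR), neither past the threshold. By the exact permutation test on TPM, p was 0.0159 in each genotype, the smallest possible in Gramd1c-/- but not in Gramd1c+/+ mice. Without replicate 5 of Gramd1c-/- on high cholesterol, the lowest of all mice at 136 TPM, the adjusted p in Gramd1c+/+ mice was 0.0171 at a log2 fold change of -1.04. That mouse is in neither group of this comparison. It was the only 1 of the 19 mice whose omission gave a call there, with adjusted p of 0.0171 to 0.470 over all 19 fits. In Gramd1c-/- mice 0 of the 19 fits gave a call, at 0.108 to 0.530. The average over both genotypes was called in all 19, at 0.00151 to 0.0153.

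Elovl5 (ENSMUSG00000032349, chr9:77917364-77984519, plus strand) encodes the elongase that acts between both desaturases. It was at 274, 217, 326, 272 and 208 TPM in Gramd1c-/- mice on high cholesterol, against 335, 572, 497 and 410 TPM on low cholesterol. In Gramd1c+/+ mice it was at 181, 207, 252, 299 and 361 TPM on high cholesterol, against 575, 487, 500, 394 and 247 TPM on low cholesterol. The diets were apart in Gramd1c-/- mice. In Gramd1c+/+ mice they overlapped through replicate 5 on low cholesterol, below 3 of the 5 mice on high cholesterol. The log2 fold change averaged over the genotypes was -0.79 (standard error 0.15, adjusted p = 0.00730, edgeR). It was -0.84 in Gramd1c-/- (adjusted p = 0.174) and -0.73 in Gramd1c+/+ mice (adjusted p = 0.219). The exact permutation test gave p = 0.0159 in Gramd1c-/- and p = 0.0397 in Gramd1c+/+ mice. Without replicate 5 of Gramd1c+/+ on low cholesterol the comparison in Gramd1c+/+ mice was called, at -0.88 (adjusted p = 0.0354, edgeR). This was the only call among the 19 fits with 1 mouse left out, where adjusted p ran from 0.0354 to 0.601. In Gramd1c-/- mice 0 of the 19 fits gave a call, at 0.0631 to 0.694. The average over both genotypes was called in all 19, at 0.000939 to 0.0277.

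Elovl2 (ENSMUSG00000021364, chr13:41182495-41220405, minus strand), the elongase of the longest polyunsaturated chains, differed least between the diets. It was at 504, 247, 493, 466 and 254 TPM in Gramd1c-/- mice on high cholesterol, against 467, 592, 694 and 588 TPM on low cholesterol. In Gramd1c+/+ mice it was at 385, 260, 271, 412 and 376 TPM on high cholesterol, against 586, 607, 572, 487 and 327 TPM on low cholesterol. The diets overlapped in both genotypes, and the 5 Gramd1c-/- mice on high cholesterol fell into 3 near those on low cholesterol and 2 at 247 and 254 TPM. The averaged log2 fold change was -0.59 (standard error 0.14, adjusted p = 0.0429, edgeR). In Gramd1c-/- it was -0.61 (adjusted p = 0.332) and in Gramd1c+/+ mice -0.57 (adjusted p = 0.420). The exact permutation test gave p = 0.0476 in Gramd1c-/- and p = 0.0317 in Gramd1c+/+ mice. The averaged call was lost without any of 13 of the 19 mice (adjusted p 0.0139 to 0.112 over all 19), all but replicates 1, 3 and 4 of Gramd1c-/- on high, 1 of Gramd1c-/- on low, 1 of Gramd1c+/+ on high and 5 of Gramd1c+/+ on low cholesterol.

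Pnpla3 (ENSMUSG00000041653, chr15:84167816-84189512, plus strand) was near the lower end of the genes tested, with 3 to 61 counts per mouse. It was at 0.110, 0.258, 0.319, 0.192 and 0.405 TPM in Gramd1c-/- mice on high cholesterol, against 0.357, 1.06, 0.202 and 0.333 TPM on low cholesterol. In Gramd1c+/+ mice it was at 0.0488, 0.322, 0.158, 0.295 and 0.274 TPM on high cholesterol, against 0.968, 0.716, 0.560, 0.0915 and 0.899 TPM on low cholesterol. The diets overlapped in both genotypes, and replicate 4 of Gramd1c+/+ on low cholesterol was among the lowest mice. The log2 fold change averaged over the genotypes was -1.23 with a 95% interval of -2.05 to -0.41 (adjusted p = 0.120, edgeR), so a difference of the size of the desaturases lies within it. It was -0.94 in Gramd1c-/- (adjusted p = 0.507) and -1.52 in Gramd1c+/+ mice (adjusted p = 0.462). The exact permutation test gave p = 0.27 in Gramd1c-/- and p = 0.0397 in Gramd1c+/+ mice. Without replicate 2 of Gramd1c-/- on low cholesterol the log2 fold change in Gramd1c-/- mice was -0.24. With any 1 mouse left out, that in Gramd1c+/+ mice was -1.80 to -1.27. DESeq2 called the average, at -1.24 (adjusted p = 0.0441). It was the only 1 of 9 alternatives to do so, with adjusted p of 0.0441 to 0.249 over the 9. With any 1 mouse left out edgeR did not call the average, at adjusted p of 0.0563 to 0.306.

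**Figure D2:**
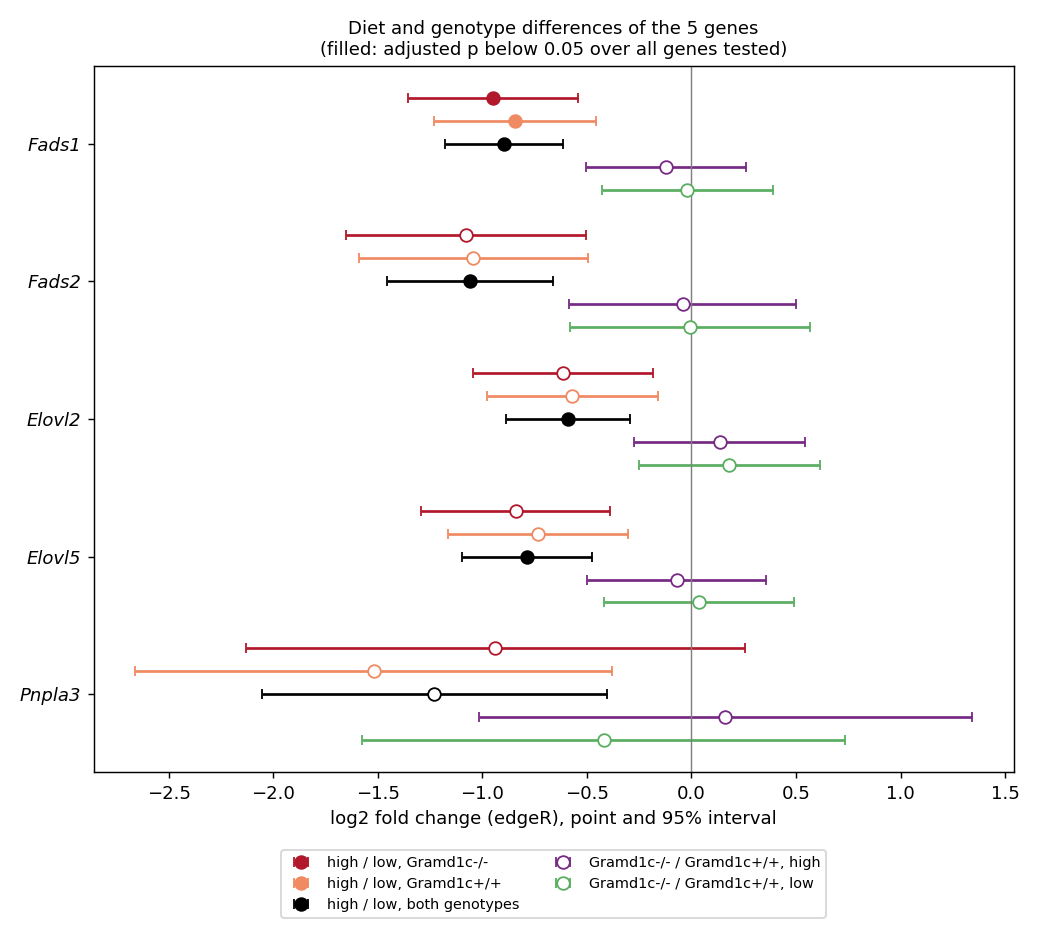
Log2 fold change (horizontal axis) of each of the 5 genes (vertical axis) in 5 comparisons, with the 95% interval from the edgeR model as a bar and filled points where the adjusted p over all genes tested was below 0.05. The 3 diet points of each gene lie below 0, and both genotype intervals of each gene include 0.

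The 5 genes did not differ between the genotypes by more than the spread between mice on either diet, and the intervals below give the differences that these data leave possible. On high cholesterol Gramd1c-/- over Gramd1c+/+ mice gave a log2 fold change of -0.12 for Fads1 (95% interval -0.51 to 0.26), -0.04 for Fads2 (-0.58 to 0.50), 0.14 for Elovl2 (-0.27 to 0.54), -0.07 for Elovl5 (-0.50 to 0.36) and 0.16 for Pnpla3 (-1.02 to 1.34). With the low cholesterol diet it was -0.02 for Fads1 (-0.43 to 0.39), -0.01 for Fads2 (-0.58 to 0.57), 0.18 for Elovl2 (-0.25 to 0.61), 0.04 for Elovl5 (-0.42 to 0.49) and -0.42 for Pnpla3 (-1.58 to 0.74). None of the 5 was called on either diet by edgeR or DESeq2, where 0.00666% of all genes were called in each comparison, Gramd1c itself. None had an unadjusted p below 0.05, as had 2.42% of all genes on high and 2.66% on low cholesterol, so a count of 0 among 5 is near the background. The smallest adjusted p of the 5 genes was 1.0 on high and 0.999 on low cholesterol (edgeR). The exact permutation test gave p of 0.476 to 1.0 on high and 0.429 to 0.984 on low cholesterol. The interaction, the diet difference of Gramd1c-/- less that of Gramd1c+/+ mice, was -0.10 for Fads1 (-0.66 to 0.46), -0.03 for Fads2 (-0.82 to 0.76), -0.04 for Elovl2 (-0.64 to 0.55), -0.11 for Elovl5 (-0.73 to 0.52) and 0.58 for Pnpla3 (-1.07 to 2.23). None of these was called by edgeR or DESeq2, nor had an unadjusted p below 0.05, and of all genes 0 were called by either tool and 250 (1.66%) had an unadjusted p below 0.05.

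Fads2 and Elovl2 lay on the same side of their group means in 17 of 19 mice, Elovl2 and Elovl5 in 16, and Fads1 and Fads2 in 12. With the mean of each group taken off, log2 CPM of Fads2 and Elovl2 had a Pearson r of 0.717 over the 19 mice (Spearman 0.744), Fads1 and Fads2 0.693 (0.605), and Elovl2 and Elovl5 0.632 (0.582). The values were 0.436 for Fads2 and Elovl5 (0.449), 0.420 for Fads1 and Elovl2 (0.446) and 0.308 for Fads1 and Elovl5 (0.316). Pnpla3 had an r of -0.339 to 0.194 with the other 4, at counts so low that a weak value says little. Without the 2 mice farthest from the median of the first gene, r was 0.672 for Fads2 and Elovl2, 0.603 for Fads1 and Fads2, 0.488 for Fads1 and Elovl5 and 0.477 for Elovl2 and Elovl5, so the order of the last pairs changed. These values are a description of mice that share library size scaling, with no test. Averaged over the 4 genes, replicate 5 of Gramd1c-/- on high cholesterol lay 0.577 below its group mean in log2 CPM and replicate 5 of Gramd1c+/+ on low cholesterol 0.507 below its own. Replicate 3 of Gramd1c+/+ on low cholesterol lay 0.436 above, the highest of the 19.

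**Figure D3:**
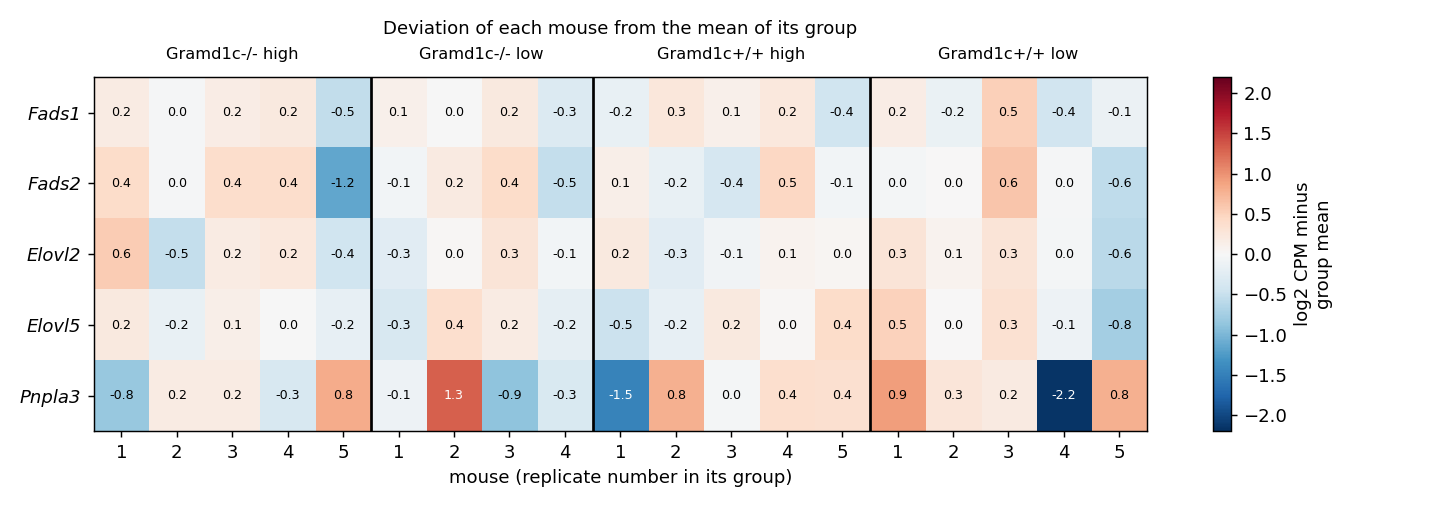
Log2 CPM of each of the 5 genes (rows) in each mouse (columns, by group and replicate number) minus the mean of its group, with the value in each cell and the same on the colour scale. Fads1, Fads2, Elovl2 and Elovl5 are all below their group mean in replicates 2 and 5 of Gramd1c-/- on high cholesterol. The same holds in replicate 4 of Gramd1c-/- and replicates 4 and 5 of Gramd1c+/+ on low cholesterol. Of these mice, Pnpla3 is below its group mean in replicate 4 of each genotype on low cholesterol and above it in the others.

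The 3 genes most like each member over the 19 mice were found by Pearson r in log2 CPM, which includes the diet difference. For Fads2 Hsd17b7, of cholesterol synthesis, was among them (r = 0.928). For Fads1 they were Scpep1 (0.939), a carboxypeptidase, Srebf2 (0.932), the transcription factor of cholesterol synthesis, and Pigs (0.924), which helps attach lipid anchors to proteins. Maged1, an adaptor protein, came first for Elovl2 (0.925) and for Elovl5 (0.926). The next were Cp (0.906), the ferroxidase ceruloplasmin, and Pzp (0.883), a protease inhibitor, for Elovl2, and Tmem30b (0.904), a flippase subunit, and Srebf2 (0.898) for Elovl5. For Pnpla3 they were Chrna4 (0.833), an acetylcholine receptor subunit, Rnf39 (0.784) and Atg2a (0.727), of autophagy. Among 15015 other genes Fads1 ranked 14 for Fads2, and Fads2 ranked 18 for Fads1.

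Genes beside the members were also read. Of 9 other tested genes that start within 100 kb of a member, 0 were called for diet by edgeR, with adjusted p of 0.0961 to 0.942, while 2 had an unadjusted p below 0.05 and DESeq2 called 1. Of all genes tested 18.3% had an unadjusted p below 0.05 for diet averaged over the genotypes, so 2 of 9 is near the background. Beside Fads2, on the side away from Fads1, Fads3, a related desaturase, was at -0.09 (adjusted p = 0.816, edgeR). Beyond Fads1, away from Fads2, Fen1, a DNA flap endonuclease, was at -0.11 (0.732), Tmem258 at 0.10 (0.809) and Myrf at -0.18 (0.579). Near Pnpla3, Samm50, of the mitochondrial outer membrane, was at -0.35 (adjusted p = 0.0961). Near Elovl5, Gm19572 had the largest difference of the 9, at 3.09 TPM on high and 6.30 TPM on low cholesterol (means of 10 and 9 mice), a log2 fold change of -1.10 (adjusted p = 0.143, edgeR).

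The gene models in the tables bear on levels set between genes, and for Pnpla3 they may also bear on a comparison of mice. The length of Fads2 in the tables was 1508 bases, all within the 3295 exon bases of GENCODE M21, and that of Fads1 was 3456 of 4812. Pnpla3 had 4640 bases, of which 3092 lay outside the 1548 exon bases of M21, so part of its counts may come from sequence that M21 does not give to the gene. Whether that part differed between mice or diets was not tested. By mean TPM over the 19 mice Fads2 ranked 229 of 15016, Elovl2 276, Elovl5 345, Fads1 347 and Pnpla3 13545. Within a mouse Fads1 was at 0.736 ± 0.203 of Fads2 in Gramd1c-/- mice on high cholesterol and 0.639 ± 0.10 on low cholesterol (SD, n = 5 and 4), and at 0.745 ± 0.219 on high and 0.646 ± 0.149 on low cholesterol in Gramd1c+/+ mice (SD, n = 5 each).

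Genes related to the 5 members were read in 7 lists of 49 genes, with 44 tested. The lists also hold genes that act on other fatty acids, such as Scd1 and Elovl6, so they are wider than the polyunsaturated pathway. For diet averaged over the genotypes edgeR called 5 of the 44 lower and 1 higher, where 0.852% of all genes were lower and 0.446% higher. Their median log2 fold change was -0.12 against 0.02 for all genes. Unadjusted counts below are read against the 18.3% of all genes. Of 4 other elongases 0 were called by edgeR, 3 had an unadjusted p below 0.05 and DESeq2 called 1. Elovl6, which lengthens palmitate, was at -0.45 (adjusted p = 0.0781), Elovl1 at -0.33 (0.130), Elovl7 at 0.85 (0.196) and Elovl3 at 0.00 (0.995, edgeR). Of 6 other desaturases 0 were called by edgeR (1 at an unadjusted p below 0.05, 1 by DESeq2), among them Scd1, which makes oleate, at 0.27 (adjusted p = 0.742) and Degs2 at 1.68 (0.106). Of 6 enzymes of the elongation cycle edgeR called 1 (3 at an unadjusted p below 0.05, 2 called by DESeq2). This was Hsd17b12, the ketoacyl reductase, at 130 ± 17.5 TPM on high and 183 ± 22.2 TPM on low cholesterol (SD, n = 10 and 9), a log2 fold change of -0.49 (adjusted p = 0.00302). Of 5 electron donors of the desaturases 0 were called by edgeR (3 at an unadjusted p below 0.05, 1 by DESeq2), with Cyb5b at -0.44 (adjusted p = 0.0953) and Cyb5a at 0.35 (0.180). Of 9 genes that place these fatty acids in phospholipids or carry them 0 were called by edgeR or DESeq2 and 2 had an unadjusted p below 0.05.

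Acyl-CoA synthetases, which activate fatty acids, had 3 of 6 genes lower and a median of -0.55. Acsl3 was at 7.72 ± 1.78 TPM on high and 17.0 ± 2.93 TPM on low cholesterol (SD, n = 10 and 9), a log2 fold change of -1.15 (adjusted p = 5.95e-07, edgeR). Acsl4, which prefers arachidonate, was at -0.81 (adjusted p = 0.000124) and Acsl5 at -0.66 (0.00215). In the 8 genes of peroxisomal chain shortening, which yields docosahexaenoic acid, the thiolase Acaa1b rose by 0.71 (adjusted p = 0.0134) and the transporter Abcd2 was lower at -0.90 (0.0389). Of 11 genes that release or use arachidonate, Pla2g12a, a secreted phospholipase, was higher at 0.50 (adjusted p = 0.0356). Of 9 other patatin-like genes and Pnpla3 partners 0 were called by edgeR or DESeq2 and 4 had an unadjusted p below 0.05, among them G0s2, an inhibitor of lipolysis, at 0.72 (adjusted p = 0.205) and Plin2, of the droplet coat, at -0.38 (0.218).

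Of 16 transcription factors and their regulators 3 were lower and 0 higher by edgeR (5 at an unadjusted p below 0.05, 4 called by DESeq2), and 13 had a log2 fold change below 0, with a median of -0.145. Srebf2 was at 15.5 ± 5.0 TPM on high and 37.2 ± 8.36 TPM on low cholesterol (SD, n = 10 and 9), a log2 fold change of -1.28 (adjusted p = 5.29e-05). Insig1, which holds SREBP in the endoplasmic reticulum, was at -1.27 (adjusted p = 7.81e-07) and Scap, its escort, at -0.53 (0.0164). Srebf1, which encodes SREBP-1c among its products and was chosen after its values were seen, was at 128 ± 42.7 TPM on high and 96.9 ± 16.8 TPM on low cholesterol, a log2 fold change of 0.37 (adjusted p = 0.202). Mlxipl, which encodes the carbohydrate-responsive factor ChREBP, was at 0.78 (adjusted p = 0.0544). Of 13 SREBP-1c target genes of fatty acid synthesis 6 were lower and 0 higher, with a median of -0.63: Acss2 was at -1.61 (adjusted p = 1.12e-05), Acly at -1.25 (0.00179), Fasn at -1.20 (0.00388) and Slc25a1 at -0.59 (0.00213). Of 20 genes of cholesterol synthesis and uptake 19 were lower, with a median of -2.21, and Sqle, squalene epoxidase, was at -4.53 (adjusted p = 9.37e-14). Of 8 LXR targets Abcg5, a sterol exporter, was higher at 0.67 (adjusted p = 0.00634) and Pltp, a phospholipid transfer protein, lower at -1.31 (0.00194). Of these 8 genes 6 had a log2 fold change above 0 and 2 below 0, with a median of 0.30. An unadjusted p below 0.05 was seen for 5 of them, and DESeq2 called 3. Of 13 PPAR-alpha targets 0 were called by edgeR or DESeq2 and 2 had an unadjusted p below 0.05.

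**Figure D4:**
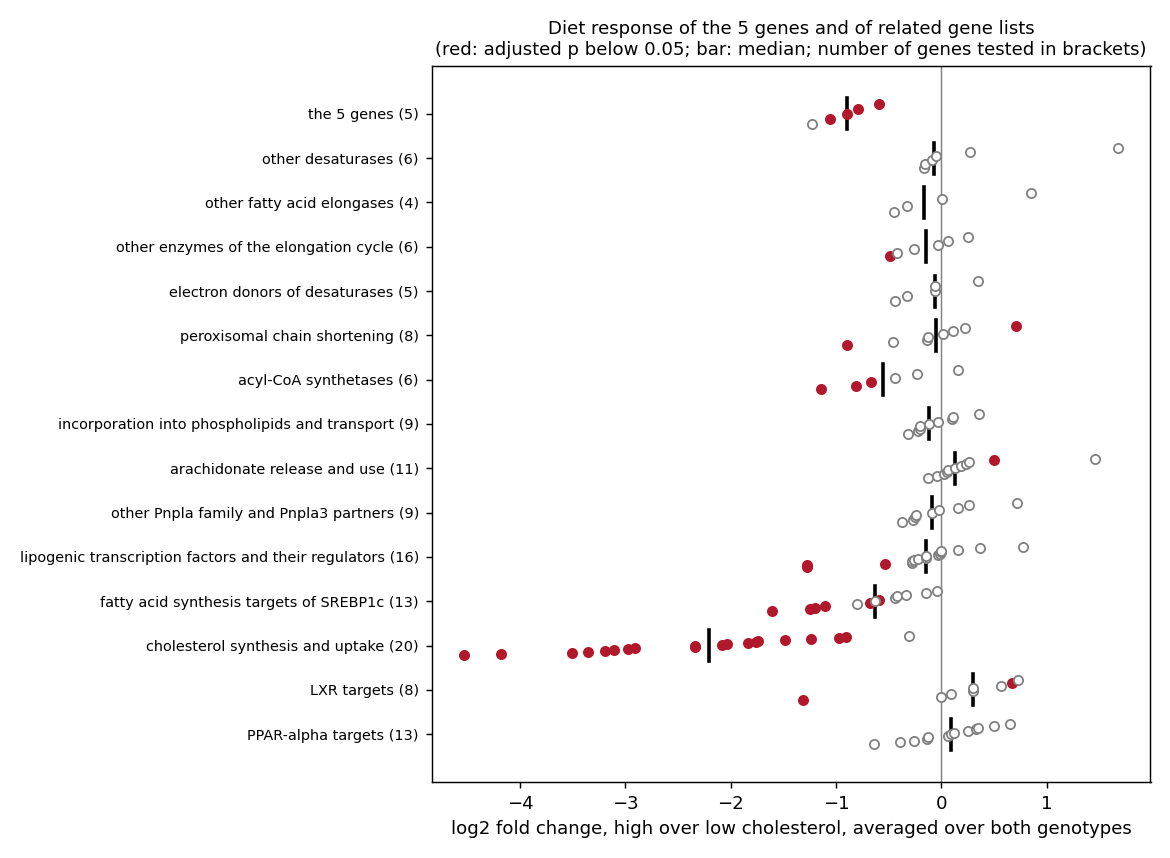
Log2 fold change for diet averaged over both genotypes (horizontal axis) of every tested gene in each list (vertical axis, number of genes tested in brackets), with the median as a bar and red points at an adjusted p below 0.05. The median was -0.90 for the 5 genes, -0.63 for SREBP-1c targets of fatty acid synthesis and -2.21 for cholesterol synthesis and uptake.

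Cell markers and quality measures were set beside the diet result. Of the 5 hepatocyte markers 0 were called for diet by edgeR (1 at an unadjusted p below 0.05, 1 by DESeq2), and they summed to 73900 to 105000 TPM (median 87700) on high and 87800 to 123000 TPM (median 104000) on low cholesterol. In these bulk samples fewer hepatocytes and less transcript per hepatocyte cannot be told apart. The 4 Kupffer cell markers summed to 137 to 717 TPM (median 267) on high and 207 to 354 TPM (median 286) on low cholesterol. The 4 gallbladder and bile duct markers summed to 52.6 to 214 TPM (median 76.5) on high and 41.9 to 67.7 TPM (median 61.7) on low cholesterol. Both highest sums were in Gramd1c-/- mice on high cholesterol. For diet edgeR called 0 genes of either set, and the part of cell make-up was not tested. Mitochondrial transcripts took 4.63 to 7.26% of counts (median 5.50) on high and 3.23 to 5.29% (median 4.75) on low cholesterol, and their part in the result was not tested. Numbers in the names of the deposited counts, taken here as animal numbers, were split into 2 runs at their widest gap. The labels do not name these runs. The first run held 5 mice on high and 6 on low cholesterol, the second 5 and 3, with the genotypes pooled. Within each of 2 runs of animal numbers, high minus low cholesterol in log2 CPM was -1.02 and -0.63 for Fads1, -1.05 and -0.93 for Fads2, -0.64 and -0.41 for Elovl2, -0.82 and -0.52 for Elovl5 and -1.21 and -0.56 for Pnpla3. With both libraries named above left out, Fads1, Fads2 and Elovl5 were called for diet averaged over the genotypes and Elovl2 was not, at -0.53 (adjusted p = 0.0804).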

How the data were processed

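Poly(A)-selected liver RNA of 19 mice was sequenced. The authors deposited raw read counts per Ensembl gene, 1 table per mouse, whole numbers that were not normalized, with STAR 2.5.2b and GRCm38 named in the submitters' processing notes. How reads were counted, whether by strand, and the annotation release: not given in the sources used here. Symbols were matched by identifier for 48970 of 49315 genes. Counts were tested in edgeR 4.0.16 (R 4.3.3) with TMM, filterByExpr (minimum count 10) and 1 coefficient per group, and adjusted over 15016 genes. TPM was computed from counts and lengths. Alternatives used DESeq2 1.42.0, limma 3.58.1, RLE, other filters, the replicate number as a block, the 2 runs of animal numbers as a term, and mice left out. Scripts were tested on simulated counts. The median depth was 30159347 counts, and 0 sample columns were left unused. The members and lists were chosen with earlier results of these data known. Named were the 5 members, up to 4 genes per list with the smallest p for diet averaged over the genotypes, the 3 genes most correlated with each member, and genes within 100 kb. Srebf1 was added to these, and a few genes so selected are not reported here.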

Additional observations from a re-analysis of the deposited data

How the results depend on the processing

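For diet averaged over the genotypes 4 of 5 genes were called, 3 to 5 under each of 10 alternatives and 3 to 4 with any 1 mouse left out. Elovl2 was lost under 6 of the 10. For diet in Gramd1c-/- mice the count of 1 became 3 with DESeq2 and 0 with only the groups compared, limma on log2(TPM + 1) or log2(TPM + 0.1), or both libraries that stood apart left out (0 to 1 over single mice left out). In Gramd1c+/+ mice it became 3 with DESeq2, 0 with only the groups compared, the runs of animal numbers as a term or either limma fit, and 2 without both libraries (0 to 2 over single mice). Over all genes, DESeq2 called 598 against 195 for diet averaged over the genotypes, 94 against 49 in Gramd1c-/- and 111 against 66 in Gramd1c+/+ mice. The genotype and interaction counts were 0 in every fit. The cause of these changes was not tested. Pnpla3 had no value under the stricter filter (mean of 10 counts and CPM of 1 in 9 mice), and only the groups compared gives no value for the averaged diet effect or the interaction.

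Mice with the same replicate number were on average no more alike than others. The mean correlation of deviations was -0.0689 over 27 pairs with the same number (-0.35 to 0.286) and 0.0173 over 108 with different numbers (-0.416 to 0.385). These values are a description without a test, and pairing by litter or cage cannot be read from them. With the replicate block 0 members were called for diet in Gramd1c-/- mice (Fads1 -0.86, adjusted p = 0.0516, edgeR), 1 in Gramd1c+/+ mice and 3 for both genotypes, and of all genes 36, 47 and 122 were called.

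Small genotype differences changed sign. On low cholesterol limma gave 0.0051 (pseudocount 1) and 0.0052 (0.1) for Fads1 and 0.0039 with either for Fads2, and voom with sample weights 0.073 and 0.095. On high cholesterol limma gave 0.022 with either pseudocount for Elovl5, voom gave 0.033 for Elovl5, 0.045 for Fads1, 0.060 for Fads2 and -0.014 for Pnpla3, and leaving out both libraries gave 0.15 for Fads2 and -0.11 for Pnpla3. The interaction of Elovl2 was 0.026 with voom and 0.044 without both libraries, where Fads1 was at 0.054 and Fads2 at 0.17. With single mice left out, the genotype difference on low cholesterol was -0.11 to 0.13 for Fads1, -0.15 to 0.18 for Fads2 and -0.11 to 0.17 for Elovl5. On high cholesterol it was -0.13 to 0.15 for Fads2, -0.019 to 0.26 for Elovl2, -0.17 to 0.037 for Elovl5 and -0.11 to 0.40 for Pnpla3. The interaction was -0.25 to 0.010 for Fads1, -0.22 to 0.16 for Fads2, -0.20 to 0.095 for Elovl2 and -0.25 to 0.040 for Elovl5. Pnpla3 had 3 to 61 counts per mouse over all mice and 6 to 61 among the 5 Gramd1c+/+ mice on low cholesterol, and the shares of counting error and of differences between mice in its spread were not tested.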
